A study of Mus musculus with 6 samples.

Results

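A set of 50 genes that shape tissues other than blood was followed in chromatin accessibility data from mouse bone marrow. The set holds 49 genes for transcription factors of the embryo (Gata, Pax, Sox, Nkx, Tbx, Fox, Lhx, Dlx, Pitx, Irx, basic helix-loop-helix and related families) and Wnt1, which encodes a secreted signal of the early midbrain. A peak belonged to the set where a member's symbol stood among the names of its nearest transcription start site in the deposited peak table. By that rule 172 of 109859 peaks belonged, of which 16 were promoter peaks, with the first listed start site within 1000 bp, and 156 were distal. Of the 50 genes, 43 had at least 1 peak. Sox1, Sox2, Sox3, Sox9, Hand2, Pax1 and Nkx2-2 had none.

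The assay was ATAC-seq, in which the Tn5 transposase cuts and tags open DNA, so that reads pile up where chromatin is accessible. The cells were Lin- bone marrow cells, the fraction left after mature blood cells are taken out and labelled as hematopoietic stem and progenitor cells, from 3 Mel18 knockout (KO) mice and 3 wildtype (WT) mice. Mel18 is the protein of Pcgf2, and its gene was removed conditionally in the hematopoietic system. The sources used here do not state the Cre line, the age and sex of the mice or a check of the deletion, nor whether the WT mice carried a Cre or had any inducing treatment. The question was whether loss of Mel18 changes accessibility in these cells.

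Polycomb proteins keep developmental genes silent outside their tissue. PRC2 methylates histone H3 on lysine 27, and PRC1, of which Mel18 is an alternative subunit, ubiquitinates histone H2A and compacts chromatin. Both gather at promoters rich in CpG dinucleotides, and genes of the kind followed here are textbook targets in embryonic stem cells and in blood. Bmi1, a close relative of Mel18, can take the same place in PRC1. Accessibility is measured here, not RNA, so the data do not show whether a gene is transcribed. In bulk cells, fewer cells with an open site and less opening per cell cannot be told apart.

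To show what such promoters look like, 4 start sites of the set are printed from RefSeq (GRCm38.p6), each from 250 bp before to 50 bp after the start, 5′ to 3′ on the gene's strand, with every CG in capitals. Isl1 and Lhx2 had a peak over this window. Six2, at the gene with the lowest p-value of the set, and Sox1, with no peak of its own, had none.
Isl1: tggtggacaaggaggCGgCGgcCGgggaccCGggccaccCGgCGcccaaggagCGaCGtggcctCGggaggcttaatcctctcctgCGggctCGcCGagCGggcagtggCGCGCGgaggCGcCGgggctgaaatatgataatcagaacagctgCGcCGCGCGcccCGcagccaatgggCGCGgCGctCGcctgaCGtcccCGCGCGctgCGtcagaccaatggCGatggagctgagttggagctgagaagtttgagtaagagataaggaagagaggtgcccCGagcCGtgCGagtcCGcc
Lhx2: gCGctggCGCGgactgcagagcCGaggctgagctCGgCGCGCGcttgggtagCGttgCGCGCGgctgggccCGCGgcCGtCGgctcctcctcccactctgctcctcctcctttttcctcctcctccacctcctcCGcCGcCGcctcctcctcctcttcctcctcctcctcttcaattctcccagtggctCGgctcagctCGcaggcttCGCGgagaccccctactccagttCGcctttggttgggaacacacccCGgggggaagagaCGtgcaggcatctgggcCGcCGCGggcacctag
Six2: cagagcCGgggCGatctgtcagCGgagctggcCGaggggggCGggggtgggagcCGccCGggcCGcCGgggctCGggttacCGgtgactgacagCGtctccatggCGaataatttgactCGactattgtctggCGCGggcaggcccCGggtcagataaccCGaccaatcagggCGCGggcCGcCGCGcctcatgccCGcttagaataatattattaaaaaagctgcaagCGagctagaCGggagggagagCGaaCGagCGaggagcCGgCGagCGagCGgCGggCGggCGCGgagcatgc
Sox1: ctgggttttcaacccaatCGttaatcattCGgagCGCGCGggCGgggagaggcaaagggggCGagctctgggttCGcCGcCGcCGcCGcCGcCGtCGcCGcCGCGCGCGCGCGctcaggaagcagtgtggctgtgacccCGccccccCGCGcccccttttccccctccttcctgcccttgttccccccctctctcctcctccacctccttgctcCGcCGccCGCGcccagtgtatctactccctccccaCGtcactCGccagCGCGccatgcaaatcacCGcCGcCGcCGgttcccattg
The Isl1 window (chr13:116309639-116309938, minus strand) held 37 CG, as did the Six2 window (chr17:85688205-85688504, minus strand) and the Sox1 window (chr8:12395269-12395568, plus strand). The Lhx2 window (chr2:38351058-38351357, plus strand) held 29. The ratio of observed to expected CG was 1.05 for Isl1, 0.835 for Lhx2, 1.13 for Six2 and 1.07 for Sox1. Both windows without a peak thus had a higher ratio than both windows with one, over only 4 windows chosen for display. A CG, read on either strand, stood in 95.4% of the 21262 RefSeq windows of protein-coding genes. Only 34 of the 50 members (68%) had a window in the RefSeq table, fewer than the 80% that a check over the list needs, so a comparison of CpG content over the list is void. Among those 34 as a description, 28 had a ratio of 0.6 or more, and 6 of these 28 (21.4%) had a peak over the window, Isl1, Lhx2, Pax6, Pax9, Tbx1 and Wnt1. Among other protein-coding genes with such a ratio, 7468 of 8867 (84.2%) had one. The members were chosen as genes silent in blood, so the choice favoured this contrast and no conclusion is drawn from it.

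Each library can be tied to a genotype but not to a mouse. KO libraries held 14487908 to 16709921 reads in peaks and WT libraries 12000808 to 13769335. Median reads per member peak were 31.5 to 35 in KO libraries and 20 to 25.5 in WT libraries, a depth that leaves single weak peaks imprecise. WT library 3 stood apart: its chi-square per degree of freedom against the other 5 libraries was 8.12 to 9.49, where other pairs gave 2.26 to 5.60. Some of the results that rest on it are given with and without it. The deposited annotation gives Psmb3, beside Pcgf2, a promoter peak with 69.1, 57.7 and 55.4 CPM (reads scaled to 1000000 peak reads, with TMM library sizes) in KO libraries. In WT libraries it had 67.4, 70.2 and 61.8 CPM, and its log2 fold change of KO over WT was -0.13 ± 0.10 (SE). Another Psmb3 promoter peak averaged 17.7 CPM in KO libraries and 16.7 CPM in WT libraries (log2 fold change 0.09 ± 0.19). These values do not check the deletion, since no source used here gives the deleted part, and the first peak lies outside the RefSeq span of Pcgf2. A promoter peak was present at 9 of 11 stem and progenitor markers (81.8%), at 8 of 13 mature lineage markers (61.5%) and at 4 of 14 stromal and endothelial markers (28.6%; Pdgfra, Pdgfrb, Col1a1 and Runx2, with none at Cxcl12, Lepr, Cdh5 or Emcn). Summed over all their peaks, the stromal and endothelial markers had 511.7 to 517.9 CPM in KO libraries and 455.4 to 522.7 CPM in WT libraries. The mature lineage markers had 585.3 to 597.4 CPM in KO libraries and 578.5 to 668.9 CPM in WT libraries, and the part of either in the results below was not tested.

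In both genotypes the developmental genes were mostly closed at their start sites. A promoter peak was present at 12 of the 50 genes (24%), against 11507 of 21896 protein-coding genes (52.6%). Relatives of the same families or roles that blood does use, such as Gata1, Gata2, Pax5, Sox4, Tal1 and Lmo2, had one at 16 of 16 genes, and genes for Polycomb subunits at 27 of 30 (90%). The members were chosen as genes silent in blood and the relatives as genes used in blood. The choice of lists thus favoured this contrast, here and in the levels below, which is given as a description. The members with a promoter peak were 4 of 23 neural and sensory genes (Pax6, Lhx2, Neurog2 and Wnt1), 4 of 10 heart and mesoderm genes (Isl1, Tbx1, Tbx3 and Gata6), 2 of 9 limb, skeleton and face genes (Dlx6 and Pax9), 2 of 4 endoderm genes (Foxa1 and Sox17) and 0 of 4 kidney and thyroid genes. This count is over the same list of peaks for both genotypes, and the presence of a peak in each genotype was not compared.

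**Figure D1:**
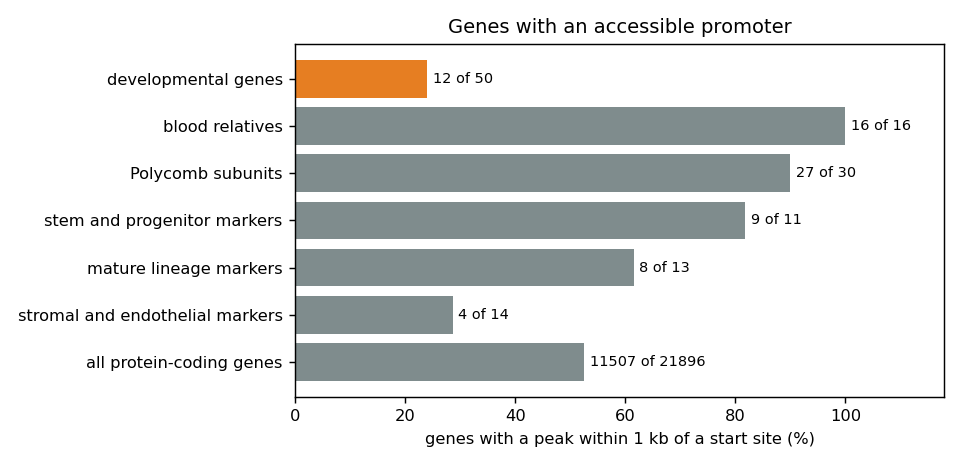
Share of genes (percent, x axis) with an ATAC-seq peak within 1 kb of a start site, for the developmental genes and 6 other gene sets (rows); numbers at the bars are genes with such a peak of genes in the set. The developmental genes, at 12 of 50, lie below the protein-coding genes, at 11507 of 21896, and near the stromal and endothelial markers, at 4 of 14.

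Where a member promoter was open, it was weakly open. The strongest promoter peak of each gene had a median level of 14.9 CPM per kb of peak among the 12 members (range 11.4 to 29.1), against 44.0 among the 16 blood relatives (lowest 8.29) and 59.2 among all protein-coding genes with one. The ranges overlapped: Gata1, at 14.6 CPM per kb, Tbx21, at 11.2, Eomes, at 9.95, and Pax5, at 8.29, were no stronger than the middle of the members, whereas Foxo3, at 125.1, was far above all of them. By CPM, which reflects the reads behind a peak, 10 of the 16 member promoter peaks (62.5%) lay below the median of all peaks, against 28.1% of all promoter peaks, and 1 (6.25%) was in the top 20%, against 48.5%. Member promoter peaks were also narrow, with a median width of 175.5 bp, against 257 bp for all promoter peaks.

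None of the 16 promoter peaks passed the test between the genotypes. In edgeR's quasi-likelihood test with Benjamini-Hochberg adjustment over all peaks, the source of every adjusted p below, 0 of the 16 passed an adjusted p of 0.05 and 0 had an unadjusted p under 0.05, and their smallest adjusted p was 0.684. Over all peaks that test also called 0 (0.0%). At an unadjusted p under 0.05 the background among all promoter peaks was 20.2%, of which 1.11% were higher in KO and 19.1% lower in KO. In no member promoter peak did all KO libraries lie below all WT libraries, against 23.6% of all promoter peaks, and in none did all lie above, against 3.63%. The median log2 fold change of KO over WT was -0.16 for the member promoter peaks and -0.15 for all promoter peaks, and 5 of 16 (31.3%) were above 0, against 30.2%. With a normalization that follows level these medians parted, at -0.27 for the member promoter peaks and -0.07 for all promoter peaks, and with that normalization and without WT library 3, a setting chosen after seeing the data, they were -0.18 and 0.01. The direction of the background also hung on scaling: with library sizes alone the medians were -0.04 and -0.03, and the peaks at an unadjusted p under 0.05 over the whole table were 7163 higher and 2988 lower in KO, against 3409 higher and 6558 lower with TMM. With TMM, the lower promoter values in KO went with level: in the highest of 10 equal level groups, 7553 promoter peaks had a median of -0.25 and no member among them, and in the lowest, 916 promoter peaks had a median of 0.03. The part of level in the count of 0 was not tested.

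The neural genes held the strongest promoter peak of the set. Pax6, the regulator of eye and forebrain, had a peak 280 bp upstream of a start site, in an intron of Pax6 (chr2:105675236-105675692), with 15.8, 11.9 and 11.8 CPM in KO libraries and 12.7, 13.1 and 14.6 CPM in WT libraries. The groups overlapped, and the log2 fold change was -0.03 ± 0.20 (SE; adjusted p = 0.984). At 29.1 CPM per kb it was the highest of the 12 genes. Lhx2, a LIM homeodomain gene of forebrain and eye, had 5.45, 6.27 and 6.69 CPM in KO libraries and 4.78, 6.33 and 5.96 CPM in WT libraries at a peak over the window printed above (chr2:38350910-38351156, 23.9 CPM per kb). These groups overlapped as well, with a log2 fold change of 0.11 ± 0.23 and an adjusted p of 0.939. Neurog2, which commits cells to become neurons, had 2 faint promoter peaks. The one 395 bp upstream had 1.56, 2.11 and 1.22 CPM in KO libraries and 1.68, 0.941 and 2.09 CPM in WT libraries (log2 fold change 0.05 ± 0.39, adjusted p = 0.988), and the one 198 bp downstream, in the 5′ UTR, averaged 0.736 ± 0.318 CPM in KO libraries and 1.06 ± 0.476 CPM in WT libraries (SD, n = 3 each; log2 fold change -0.50 ± 0.48, adjusted p = 0.830). Another Pax6 peak, 431 bp downstream of another start site, averaged 0.609 ± 0.105 CPM in KO libraries and 0.922 ± 0.290 CPM in WT libraries (SD, n = 3 each; log2 fold change -0.59 ± 0.45, adjusted p = 0.767). At about 1 CPM, values of this size rest on few reads in each library.

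Among heart and mesoderm genes, Isl1, which marks progenitors of the second heart field and also motor neurons, had the promoter peak with the lowest p of the set. The peak lay 71 bp upstream of the start and over the printed window (chr13:116309606-116309912, in the 5′ UTR by the table), with 7.36, 5.15 and 5.47 CPM in KO libraries and 9.30, 6.24 and 8.43 CPM in WT libraries. KO library 1 lay above WT library 2, so the groups overlapped, and the log2 fold change of -0.41 ± 0.25 had an adjusted p of 0.684. Without WT library 2 the unadjusted p was 0.0383 at a log2 fold change of -0.59. Tbx3, a T-box gene of limb and of the heart's conduction system, had 6.43, 5.34 and 6.50 CPM in KO libraries and 6.64, 5.22 and 3.80 CPM in WT libraries (log2 fold change 0.23 ± 0.26, adjusted p = 0.862). Its lowest value was that of WT library 3, and the other 5 libraries overlapped. Tbx1, which acts in the pharyngeal arches, averaged 2.11 ± 0.384 CPM in KO libraries and 1.95 ± 0.417 CPM in WT libraries at a peak 749 bp downstream of its start (SD, n = 3 each; log2 fold change 0.12 ± 0.33, adjusted p = 0.951). The Tbx1 difference was smaller than the spread within either group.

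In the limb, skeleton and face group, Pax9, a gene of tooth, palate and thymus, had 5.04, 2.44 and 2.32 CPM in KO libraries and 2.66, 1.88 and 3.88 CPM in WT libraries at a peak 65 bp upstream of its start. KO library 1 alone set the higher KO mean, and without it the log2 fold change turned to -0.24, against 0.22 ± 0.38 with all libraries (adjusted p = 0.921). Dlx6, a homeobox gene of the jaw arches and of bone, had 4.17, 2.84 and 2.83 CPM in KO libraries and 4.69, 3.68 and 3.88 CPM in WT libraries (log2 fold change -0.31 ± 0.27, adjusted p = 0.810), and the groups overlapped. Of the endoderm genes, Sox17, which specifies endoderm and also acts in endothelium and in fetal blood stem cells of the mouse, had 5.39, 6.47 and 4.57 CPM in KO libraries and 7.35, 5.30 and 6.86 CPM in WT libraries (log2 fold change -0.25 ± 0.24, adjusted p = 0.831). Foxa1, a pioneer factor of endoderm, had 2.78, 2.90 and 2.77 CPM in KO libraries and 3.10, 2.65 and 3.65 CPM in WT libraries at 777 bp upstream (log2 fold change -0.16 ± 0.27, adjusted p = 0.920). Both sets of groups overlapped.

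**Figure D2:**
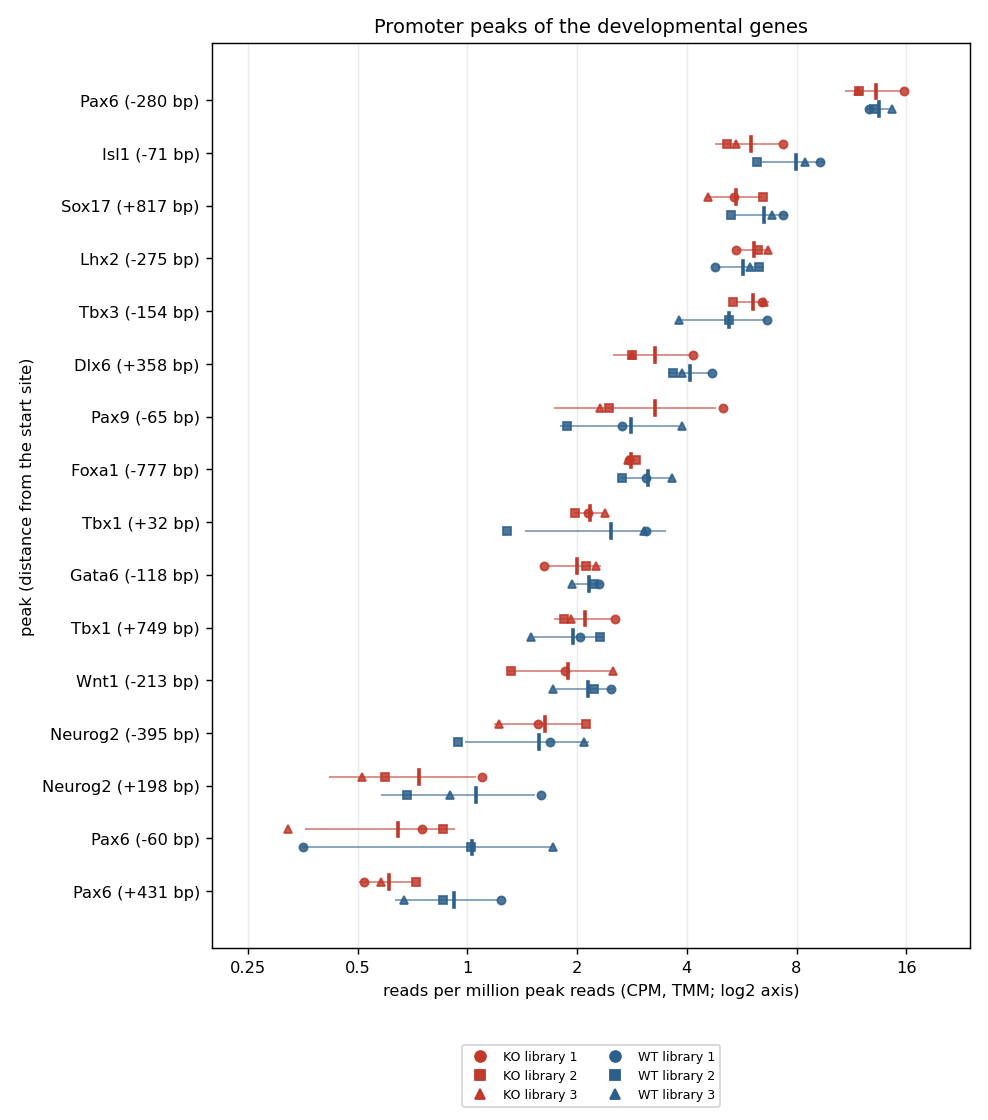
Level of each of the 16 member promoter peaks (rows, with the distance from the start site) in CPM on a log2 axis; points are single libraries, short vertical bars are group means and thin lines are 1 SD, KO (red) above WT (blue), 3 libraries each. KO and WT points overlap in every row, and the Pax6 peak 280 bp upstream has the highest level, 11.8 to 15.8 CPM in KO and 12.7 to 14.6 CPM in WT.

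Most accessible sites of the set lay far from the start sites. Of the 156 distal peaks, 129 (82.7%) were between genes, against 47.6% of all distal peaks, 18 were in introns, 7 in exons and 2 in 3′ UTRs. Between genes means that the deposited annotation gave no exon, intron or UTR. Some of these peaks lay within the RefSeq span of a gene, as at Gata4. Their median distance from the assigned start site was 35204 bp, against 22468 bp for all distal peaks, with 38 within 10000 bp, 33 beyond 100000 bp and the farthest, at Irx3, at 254117 bp. A nearest start site at such a distance does not show which gene a site acts on. Distal member peaks were weak, with a median of 12.4 CPM per kb of peak, against 16.4 CPM per kb for all distal peaks, and 114 of 156 (73.1%) were below the median CPM of all peaks, against 55.4%. In the top 20% were 5 (3.21%), against 12.9%.

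Between the genotypes, the counts of distal member peaks stood close to those of all distal peaks. At an adjusted p of 0.05, 0 of 156 passed (background 0.0%), and their smallest adjusted p was 0.123. DESeq2's Wald test gave no member an adjusted p, and limma-voom passed 0 members. At an unadjusted p under 0.05 there were 10 (6.41%), against a background of 6.3%. Of these, 6 (3.85%) were higher in KO, against a background of 3.6%, and 4 (2.56%) were lower, against 2.7%. That split of 6 higher and 4 lower became 9 and 2 with scaling by library size alone and 4 and 5 with a normalization that follows level. The whole table, promoter and distal peaks together, moved as well. It had 3409 higher and 6558 lower with TMM, 7163 and 2988 with library size alone, and 2487 and 3700 with the normalization that follows level. The split over distal peaks alone in those settings is not given here. All KO libraries lay above all WT libraries in 14 peaks (8.97%; background 8.62%) and below them in 9 (5.77%; background 4.14%). The median log2 fold change was 0.08, against 0.06 over all distal peaks, and 56.4% of the member peaks were above 0, against 57.2%. By role the medians were -0.002 for neural and sensory, -0.005 for heart and mesoderm, 0.11 for limb, skeleton and face, -0.003 for endoderm and 0.20 for kidney and thyroid genes. The member median turned to -0.06 without WT library 2, where that of all distal peaks was 0.06, and to -0.05 with the normalization that follows level, where that of all distal peaks was 0.002.

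**Figure D3:**
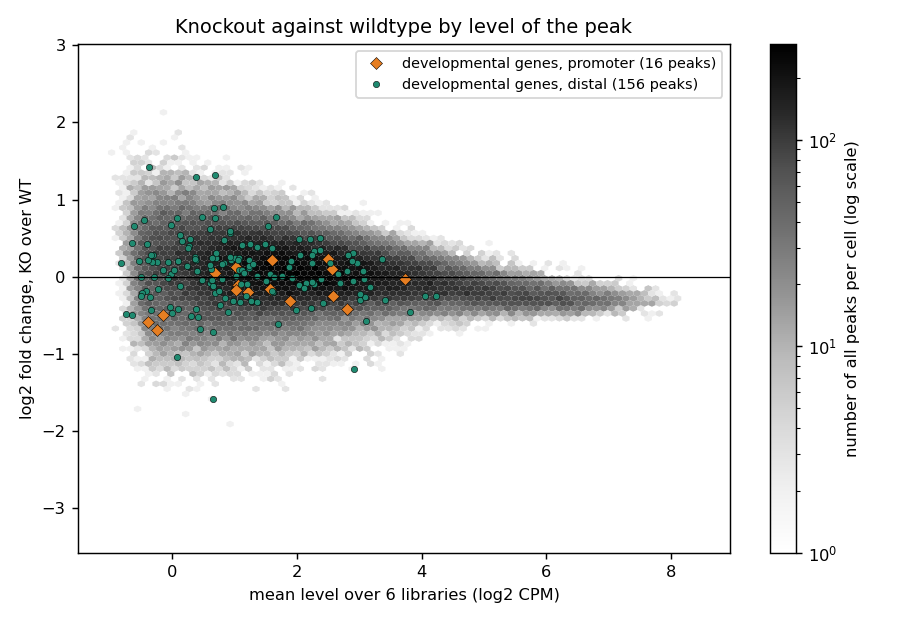
Log2 fold change of KO over WT (y axis) against the mean level over 6 libraries (log2 CPM, x axis); grey cells count all 109859 peaks on a log scale, orange diamonds are the 16 promoter peaks and green points the 156 distal peaks of the developmental genes. The members lie at low to middle levels and inside the cloud of all peaks, with the Six2 peak at -1.20 and the En1 peak at -1.59 at its lower edge.

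The distal peak with the lowest p lay near Six2, the homeobox gene that keeps nephron progenitors of the kidney from differentiating. It lay 220688 bp upstream (chr17:85908746-85909137), between genes by the deposited annotation but within the RefSeq span of Gm30117. The peak had 5.16, 4.95 and 3.54 CPM in KO libraries and 11.95, 6.84 and 12.6 CPM in WT libraries. Every KO library was below every WT library, and the log2 fold change was -1.20 ± 0.28 with an adjusted p of 0.123. It passed the adjusted threshold when WT library 2 was left out (-1.46, adjusted p = 0.0414) and when WT library 3 was left out (-1.03, adjusted p = 0.0203), and in no other setting tried. In those 2 settings 534 and 3013 of all 109859 peaks passed. Another Six2 peak 160498 bp upstream (chr17:85848674-85848830) had 2.84, 1.78 and 2.25 CPM in KO libraries and 1.06, 0.941 and 0.746 CPM in WT libraries, so here every KO library was above every WT library (log2 fold change 1.32 ± 0.37, adjusted p = 0.212). Over all 10 Six2 peaks, 5 had a log2 fold change above 0 and 5 below, and the summed level was 26.1 ± 2.71 CPM in KO libraries and 30.3 ± 6.79 CPM in WT libraries (SD, n = 3 each). The opposite signs of these peaks left the sums overlapping.

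Among neural and sensory genes, the distal peak with the lowest p lay 241644 bp downstream of the start of En1, which organises midbrain and cerebellum (chr1:120844041-120844220). It had 0.637, 1.06 and 0.643 CPM in KO libraries and 2.74, 1.45 and 2.83 CPM in WT libraries, with no overlap (log2 fold change -1.59 ± 0.41, adjusted p = 0.169). Evx2, a homeobox gene beside the HoxD cluster, had a peak in its own exon 3350 bp from the start (chr2:74655842-74656295) with 7.30, 5.41 and 8.04 CPM in KO libraries and 10.6, 9.15 and 11.2 CPM in WT libraries. The groups did not overlap, with a log2 fold change of -0.58 ± 0.23 and an adjusted p of 0.454. Neurog2 had a peak 7701 bp upstream (chr3:127625330-127625557), with 11.5, 10.6 and 13.6 CPM in KO libraries and 16.4, 13.4 and 19.1 CPM in WT libraries. KO library 3 lay just above WT library 2, and the log2 fold change was -0.46 ± 0.20 (adjusted p = 0.527). In the other direction, Barhl2, a homeobox gene of retina and spinal cord, had 1.56, 2.11 and 2.51 CPM in KO libraries and 0.797, 1.54 and 0.969 CPM in WT libraries at 250269 bp downstream (chr5:106207807-106207986; log2 fold change 0.90 ± 0.39, adjusted p = 0.507). Each KO library was above each WT library. Lhx2 had 3.01, 4.09 and 3.54 CPM in KO libraries and 1.95, 2.82 and 1.94 CPM in WT libraries at 27230 bp downstream (chr2:38378459-38378616; log2 fold change 0.66 ± 0.30, adjusted p = 0.529), again without overlap, while its promoter peak differed by 0.11.

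In the limb, skeleton and face group, Dlx5, which works beside Dlx6 in jaw and bone, had no promoter peak but a peak 1490 bp upstream of its start (chr6:6883450-6883666). It had 2.03, 1.32 and 2.19 CPM in KO libraries and 0.797, 0.855 and 0.596 CPM in WT libraries, without overlap (log2 fold change 1.30 ± 0.40, adjusted p = 0.278). Pitx1, the homeobox gene that gives the hindlimb its identity, had named peaks in both directions. At 50205 bp upstream (chr13:55881582-55881677) it had 1.27, 0.990 and 1.09 CPM in KO libraries and 0.354, 0.599 and 0.298 CPM in WT libraries (log2 fold change 1.42 ± 0.46, adjusted p = 0.316). At 104881 bp upstream (chr13:55936241-55936370) it had 1.27, 1.25 and 1.03 CPM in KO libraries and 2.04, 2.31 and 1.57 CPM in WT libraries (log2 fold change -0.72 ± 0.35, adjusted p = 0.578). Neither pair of groups overlapped, and neither difference passed the threshold.

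**Figure D4:**
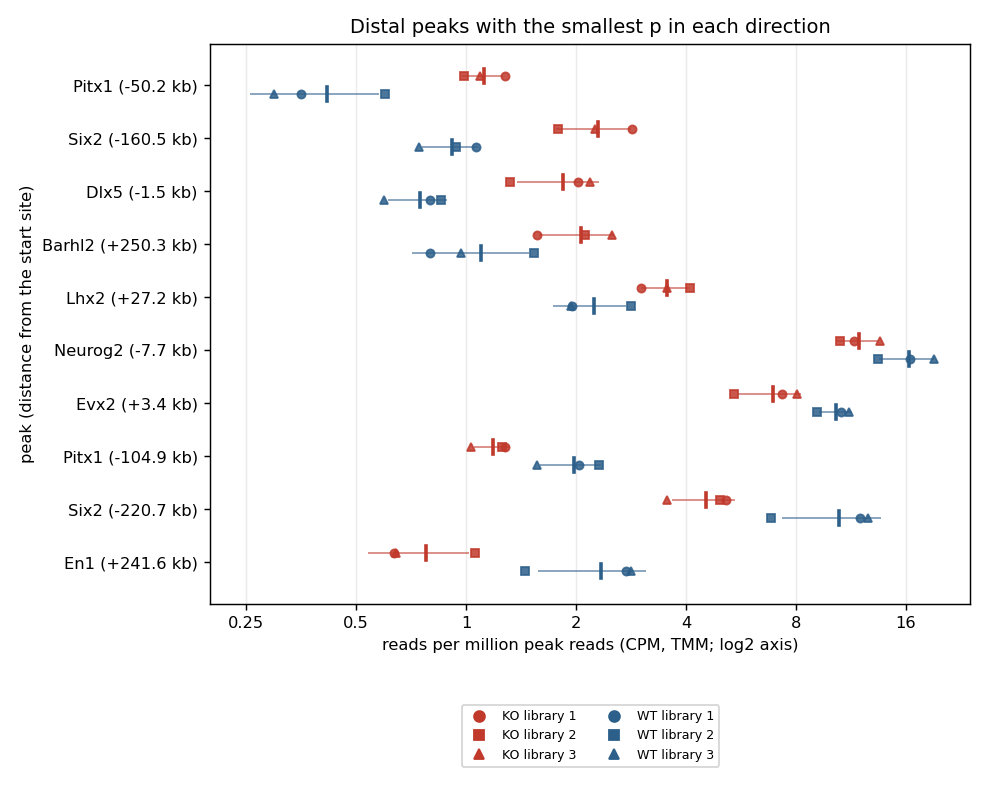
Level of the 10 named distal peaks (rows, with the distance from the start site) in CPM on a log2 axis, ordered by log2 fold change of KO over WT; points are single libraries, short vertical bars group means and thin lines 1 SD, KO (red) above WT (blue), 3 libraries each. KO lies right of WT in the upper 5 rows and left of it in the lower 5, with overlap in the Neurog2 row only, and none passed an adjusted p of 0.05.

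At the genes with the most peaks, KO and WT sums overlapped and at Pitx1 and Pax8 WT library 3 was the lowest. Pitx1 had 13 peaks, all distal and upstream, with summed levels of 49.2, 48.9 and 46.5 CPM in KO libraries and 60.7, 67.1 and 25.2 CPM in WT libraries. WT library 3 was at 0.394 of the mean of the other WT libraries and was the lowest of the 6 libraries in 10 of the 13 peaks. Its strongest peak, 64306 bp upstream (chr13:55895561-55895901), had 17.5, 16.96 and 16.9 CPM in KO libraries and 22.0, 29.0 and 9.92 CPM in WT libraries. With all libraries its log2 fold change was -0.24 ± 0.31 (adjusted p = 0.883), and without WT library 3 it was -0.57 (adjusted p = 0.0236). Pax8, a gene of kidney and thyroid, had 9 peaks, with summed levels of 31.4, 28.6 and 34.7 CPM in KO libraries and 27.7, 31.6 and 18.7 CPM in WT libraries. All 9 had a log2 fold change above 0, up to 0.78, but WT library 3 was the lowest of the 6 in 7 of them and the sums overlapped. The smallest adjusted p among the Pax8 peaks was 0.602.

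At other genes with many peaks, WT library 3 was not the lowest WT library. Hand1, a gene of heart and placenta, had 12 peaks with sums of 28.5, 38.4 and 33.5 CPM in KO libraries and 28.7, 29.1 and 38.3 CPM in WT libraries. Irx3, a patterning gene of the neural tube, had 10 peaks with sums of 42.0, 24.1 and 26.0 CPM in KO libraries and 25.5, 19.8 and 31.9 CPM in WT libraries. Foxa2, a pioneer factor of endoderm and floor plate, had 9 peaks with sums of 17.6, 14.4 and 18.1 CPM in KO libraries and 24.2, 13.2 and 15.4 CPM in WT libraries. With Six2, these are the 6 genes with the most peaks, and KO and WT sums overlapped for each. At Pax6, WT library 3 was the highest of the 6 at a peak 87520 bp downstream, in an intron of Elp4 (chr2:105769835-105770131), named after its values were seen, with 9.16, 7.32 and 6.95 CPM in KO libraries and 2.04, 4.70 and 12.3 CPM in WT libraries. Its log2 fold change was 0.29 ± 0.49 (adjusted p = 0.919), and without WT library 3 it was 1.21 (adjusted p = 0.0193). Without that library 3 of 172 member peaks and 3013 of all 109859 peaks passed an adjusted p of 0.05. Over all 172 member peaks, WT library 3 was the lowest library in 26.7% and the highest in 19.8%, against 31.6% and 25.6% of all peaks. Among the members, WT library 2 was the lowest in 27.3%, against 15.9% of all peaks, and WT library 1 the highest in 26.7%, against 18.2%.

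**Figure D5:**
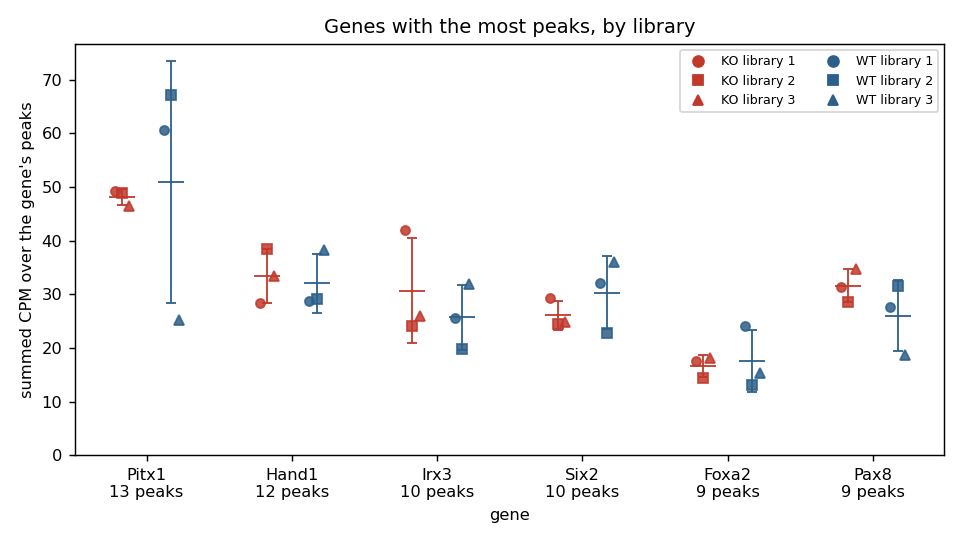
Summed level over all peaks of a gene (CPM, y axis from 0) for the 6 developmental genes with the most peaks; points are single libraries, horizontal bars group means and error bars 1 SD, KO (red) left of WT (blue), 3 libraries each. KO and WT libraries overlap for every gene, and WT library 3 stands at 25.2 CPM for Pitx1, where the other WT libraries stand at 60.7 and 67.1 CPM.

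Member peaks took 0.0568, 0.0541 and 0.0545% of peak reads in KO libraries and 0.0543, 0.0488 and 0.0508% in WT libraries, with overlap of KO library 2 and WT library 1. The mean share was 0.0551 ± 0.00143% in KO libraries and 0.0513 ± 0.00279% in WT libraries (SD, n = 3 each). Promoter peaks of all genes took 50.2 ± 0.284% of peak reads in KO libraries and 53.9 ± 1.70% in WT libraries. Distal peaks as a whole thus also took a larger share in KO libraries. Member promoter peaks alone took 0.00605 ± 0.000535% in KO libraries and 0.00596 ± 0.000508% in WT libraries. The part of the wider shift in the member share was not tested. The 7 genes with no peak of their own were mostly far from any accessible site. The nearest peak to the gene body lay 568536 bp away for Sox2, 253285 bp for Sox3, 228033 bp for Sox9 and 95131 bp for Sox1, but 4089 bp for Hand2. Pax1 and Nkx2-2 had peaks over the gene body that the table gives to another start site.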

How the data were processed

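ATAC-seq was done on Lin- bone marrow cells of 3 Mel18 KO and 3 WT mice, grouped by the labelled genotype. According to the submitters' processing notes the build was mm10. The tools listed there, without roles, are FastQC, Trimmomatic 0.40, MACS2 2.1.1, Picard, Bowtie2 1.2.2 and MultiQC 0.11.5. How reads were counted, whether they were shifted for Tn5 and whether duplicates were removed is not given in the sources used here; each step can move the counts.

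The deposited table holds, per the file headers, the position and nearest start site of 109859 peaks, whole-number read counts in 6 libraries with no normalization, and a comparison of KO with WT by the authors. The authors' deposited log2 fold changes, p-values and adjusted p-values were used as a check alone, and the log2 fold changes computed here lay within 0.0473 of theirs. Count columns are numbered within a genotype, so a column was assigned to a group and to no mouse. Another 12 columns with values for single libraries were left out. No pair of libraries was a duplicate: chi-square values per degree of freedom were 2.26 to 9.49.

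All peaks were tested together with edgeR's quasi-likelihood test (version 4.0.16, in R 4.3.3; robust fit, TMM), adjusted by Benjamini-Hochberg over all peaks at a threshold of 0.05; filterByExpr removed 0 peaks. The SE was obtained by dividing the absolute log2 fold change by the root of F. Levels are CPM with TMM library sizes, compared between peaks per kb of peak. Starts are counted from 1. Alternatives were DESeq2 1.42.0 (size factors in edgeR; Wald test), limma-voom (limma 3.58.1), library sizes alone, trended normalization (loess offsets, span 0.3), no filter, a mean count of at least 20 (91847 peaks kept), each library left out, a promoter window of 3000 bp and the first gene name only. Named are, for higher and for lower values in KO, the 5 promoter and 5 distal peaks of lowest p (1 per gene in each set), the 6 genes with the highest promoter peak per kb, the 5 genes with the most peaks (and Pax8, tied at 9 peaks), and genes with no peak. In simulated data of 107818 peaks for KO against WT, the test called 2 of 67 peaks changed 1.5-fold, 10 of 67 changed 2-fold and 47 of 66 changed 4-fold, with 9 false calls. The members, lists and rules were chosen with earlier results of these data known. RefSeq promoter windows were matched by symbol.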

Additional observations from a re-analysis of the deposited data

How the results depend on the processing

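Over all peaks, 0 passed an adjusted p of 0.05, against 468 with DESeq2's size factors, 303 with limma-voom, 0 to 3013 with a library left out (534 without WT library 2, 3013 without WT library 3) and 117 with trended normalization and without WT library 3, a setting chosen after seeing the data. At an unadjusted p under 0.05 the 9967 peaks became 6187 with trended normalization and 6453 to 15514 with a library left out. With library sizes alone, the median change over all peaks on the log2 scale was 0.14, against 0.02, and that of the distal peaks of the developmental genes 0.2027, against 0.08. Their distal median was -0.0495 with trended normalization and -0.057 to 0.11 with a library left out. Their promoter median was 0.0082 with a promoter window of 3000 bp, which held 18 genes in place of 12, and -0.27 to -0.067 with a library left out. Member peaks past the adjusted threshold numbered 0 to 3 of 172 with a library left out and 0 in every other setting that gave adjusted values. Without WT library 2 it was 1 of 172, against 534 of all 109859 peaks. Without WT library 3 it was 3 of 172, against 3013 of all 109859 peaks. Promoter peaks of the set at an unadjusted p under 0.05 numbered 0 to 1 of 16 with a library left out and 1 of 26 with the window of 3000 bp. Distal peaks of the set numbered 6 to 16 of 156 with a library left out. All peaks, promoter and distal together, gave 6453 to 15514 of up to 109859, which is not a distal background. With all libraries, 20.2% of all promoter peaks and 6.3% of all distal peaks had an unadjusted p under 0.05. The shares of each class in the other settings are not given here, so these member counts cannot be read against them. The difference in the share of reads, 0.0038 percentage points, ran from 0.0025 to 0.0053. Over all settings, the log2 fold changes of the 22 named peaks kept direction and call in 288 refits. Six2 at -220688 bp passed the threshold in 2, and 14 refits changed sign, at 5 promoter peaks. With a library left out, Pax9 at -65 bp ran from -0.24 to 0.54 and Lhx2 at -275 bp from -0.037 to 0.1854. Tbx1 at +749 bp ran from -0.038 to 0.2447 with a library left out and was -0.14 in the setting chosen later. Pax6 at -280 bp was 0.0895 with library sizes alone, -0.1831 to 0.042 with a library left out and 0.115 in the setting chosen later. Neurog2 at -395 bp was -0.082 with trended normalization and -0.24 to 0.32 with a library left out. The cause of these changes was not tested.

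No paired analysis was possible because the groups share no replicate numbers in the labels and the columns carry none that match them. Labels name a separate mouse for each sample, so the spread between libraries holds differences between animals and between preparations, which cannot be told apart. Median reads per member peak were 20 to 35, and in the simulation over all peaks most 4-fold and few 2-fold changes were called, so differences up to 2-fold would mostly be missed.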

Other observations

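Some peaks over the bodies of developmental genes were given by the table to a neighbouring start site and so stand outside the counts above. Nkx2-2, a homeobox gene of ventral spinal cord and pancreas, had 4 peaks over its body that the table assigns to the antisense gene Nkx2-2os. The strongest of them (chr2:147178226-147178388) had 5.45, 6.53 and 6.69 CPM in KO libraries and 5.31, 5.82 and 7.01 CPM in WT libraries. The groups overlapped, and the log2 fold change was 0.04 ± 0.23 (adjusted p = 0.982). Pax1, a gene of the vertebral column, had 1 peak, assigned to AI646519, with an average of 0.622 ± 0.261 CPM in KO libraries and 1.05 ± 0.210 CPM in WT libraries (SD, n = 3 each; log2 fold change -0.74 ± 0.46, adjusted p = 0.705). Pax8 had 3 peaks over its body assigned to Psd4. The strongest of these (chr2:24429871-24430118) had 5.39, 4.35 and 5.34 CPM in KO libraries and 2.92, 4.62 and 2.31 CPM in WT libraries (log2 fold change 0.62 ± 0.29, adjusted p = 0.571), with KO library 2 below WT library 2. Gata4, a factor of heart and gonad, had 1 faint peak assigned to Neil2.

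Among the relatives that blood uses, 34 promoter peaks had a median log2 fold change of -0.14 and 262 distal peaks one of 0.04, and their smallest adjusted p was 0.211, at Foxo3.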
